A study of Mus musculus with 12 samples.

Results

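A set of 86 mouse potassium channel genes with a Kcn symbol was compared in prefrontal cortex. The comparison was between adult mice that had received cocaine in adolescence and adult mice that had received saline. The members were the protein-coding genes whose symbol starts with Kcn followed by one of the subunit letters below. They were 86 of 28842 genes in the table and of 17586 protein-coding genes. Kcne and Kcnu genes were not members. They comprised 40 voltage-gated pore subunits (Kcna, b, c, d, f, g, h, q, s and v), 7 auxiliary subunits of voltage-gated channels (Kcnab and Kcnip), 14 inward rectifiers (Kcnj), 14 two-pore channels (Kcnk) and 11 calcium-activated genes (Kcnma, Kcnmb and Kcnn, with the sodium-activated Kcnt).

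All animals were male wild-type C57BL/6J mice. The cocaine group (6 libraries) was given 15 mg/kg cocaine between postnatal days 28 and 42, and the saline group (6 libraries) was given saline over the same days. Both groups had a pre-test on day 75, received 1 mg/kg cocaine ahead of conditioned place preference training on days 76 and 77, and gave their prefrontal tissue after the test of day 78. Both therefore carried adult cocaine, and the comparison was of adolescent exposure only. Whether the 12 libraries stem from separate mice is not labelled, and the p-values therefore measure only library-to-library spread, which may be technical.

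Potassium channels let potassium ions leave or enter cells down their gradient. They set the resting potential, end the action potential and space the spikes of a train. Voltage-gated channels open on depolarisation, inward rectifiers and two-pore channels carry current near rest, and calcium-activated channels couple calcium entry to the after-hyperpolarisation. In cortex, neurons hold most of these genes, while some, such as Kcnj10, belong to glia.

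The libraries held 17.7 ± 0.697 M reads in the cocaine group and 17.8 ± 1.18 M in the saline group (SD, n = 6 each; exact two-sided permutation p = 0.898). Some labels name a mesenchymal stem cell line, a human genome build and a time, day 0 for odd and day 5 for even replicates. The measured genes were those of mouse cortex: all 5 excitatory neuron markers checked were present, at mean levels between 16.0 and 368 FPKM (reads scaled to gene length and to the library total, computed here from the deposited values). One library stood apart. Ttr, a defining gene of choroid plexus, had 11208 normalised reads in saline library 5 and at most 13.2 in each of the others. The 6 myelin markers together ranged from 44961 to 177798 normalised reads over cocaine libraries and from 30119 to 217589 over saline libraries.

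Prefrontal cortex expressed most of the members, and no member was called different between the groups. Of the 86 members, 67 had a mean of at least 1 FPKM and were tested with limma on log2(value + 1), with Benjamini-Hochberg adjustment over all 13016 genes tested. At an adjusted p under 0.05, 0 of 67 members and 0 of 13016 genes (0.0 percent) were called. At an unadjusted p under 0.05, 0 members passed, against 149 genes or 1.14 percent of all tested, a share at which fewer than 1 member of 67 would be found, so the count of 0 says nothing particular about channels. edgeR and DESeq2, run on the recovered read counts, also called 0 members after adjustment. At an unadjusted p under 0.05 edgeR found 0 and DESeq2 found 1, Kcnj13. The cocaine and saline libraries overlapped for all 67 tested members, while 10 of all tested genes (0.0768 percent) had groups that did not overlap.

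The median difference of each family lay close to 0. Of 33 tested voltage-gated members, 17 were higher and 16 lower in the cocaine group, with a median log2 difference of 0.00042. The 7 auxiliary members divided 3 to 4 (median -0.01), the 10 inward rectifiers 5 to 5 (median 0.0021), the 9 two-pore members 3 to 6 (median -0.05) and the 8 calcium-activated members 4 to 4 (median -0.00041). Over all tested members 32 were higher and 35 lower with a median of -0.0046, beside 6990 higher and 6026 lower and a median of 0.01 over all tested genes. None of these single differences passed the test, and the words higher and lower here give only the sign. The precision is part of the result: the 95% interval of the difference lay within 1 log2 unit of 0 for 62 of 67 members and within 0.5 for 52.

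**Figure D1:**
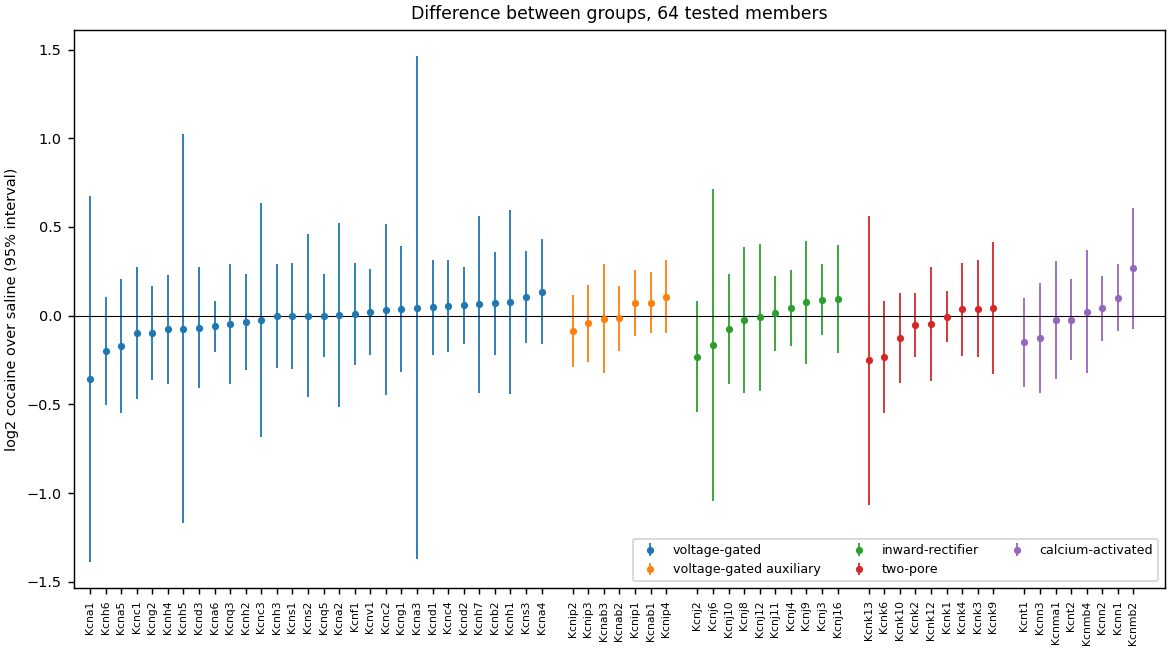
Difference between cocaine and saline libraries (log2 of cocaine over saline, vertical axis) for 64 tested members, by family; points are the limma estimates and bars their 95% intervals. Every interval drawn crosses 0, and the widest belong to Kcna3, Kcnh5, Kcna1, Kcnj6 and Kcnk13, which varied most between libraries.

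The levels spanned a wide range, from members that ranked with abundant neuronal transcripts to members near 0. Sums were taken over all members of a family, tested or not. The sum over the 40 voltage-gated members was 410 ± 49.1 FPKM in cocaine libraries and 416 ± 73.3 FPKM in saline libraries (SD, n = 6 each). The auxiliary subunits summed to 199 ± 17.6 FPKM in cocaine and 199.7 ± 6.24 FPKM in saline libraries, and the inward rectifiers to 193 ± 14.0 FPKM in cocaine and 189 ± 17.1 FPKM in saline libraries. Two-pore members summed to 84.6 ± 2.55 FPKM in cocaine and 85.8 ± 2.60 FPKM in saline libraries, and calcium-activated members to 48.5 ± 1.99 FPKM in cocaine and 49.3 ± 3.83 FPKM in saline libraries. In each family the group means lay closer together than the spread within a group.

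**Figure D2:**
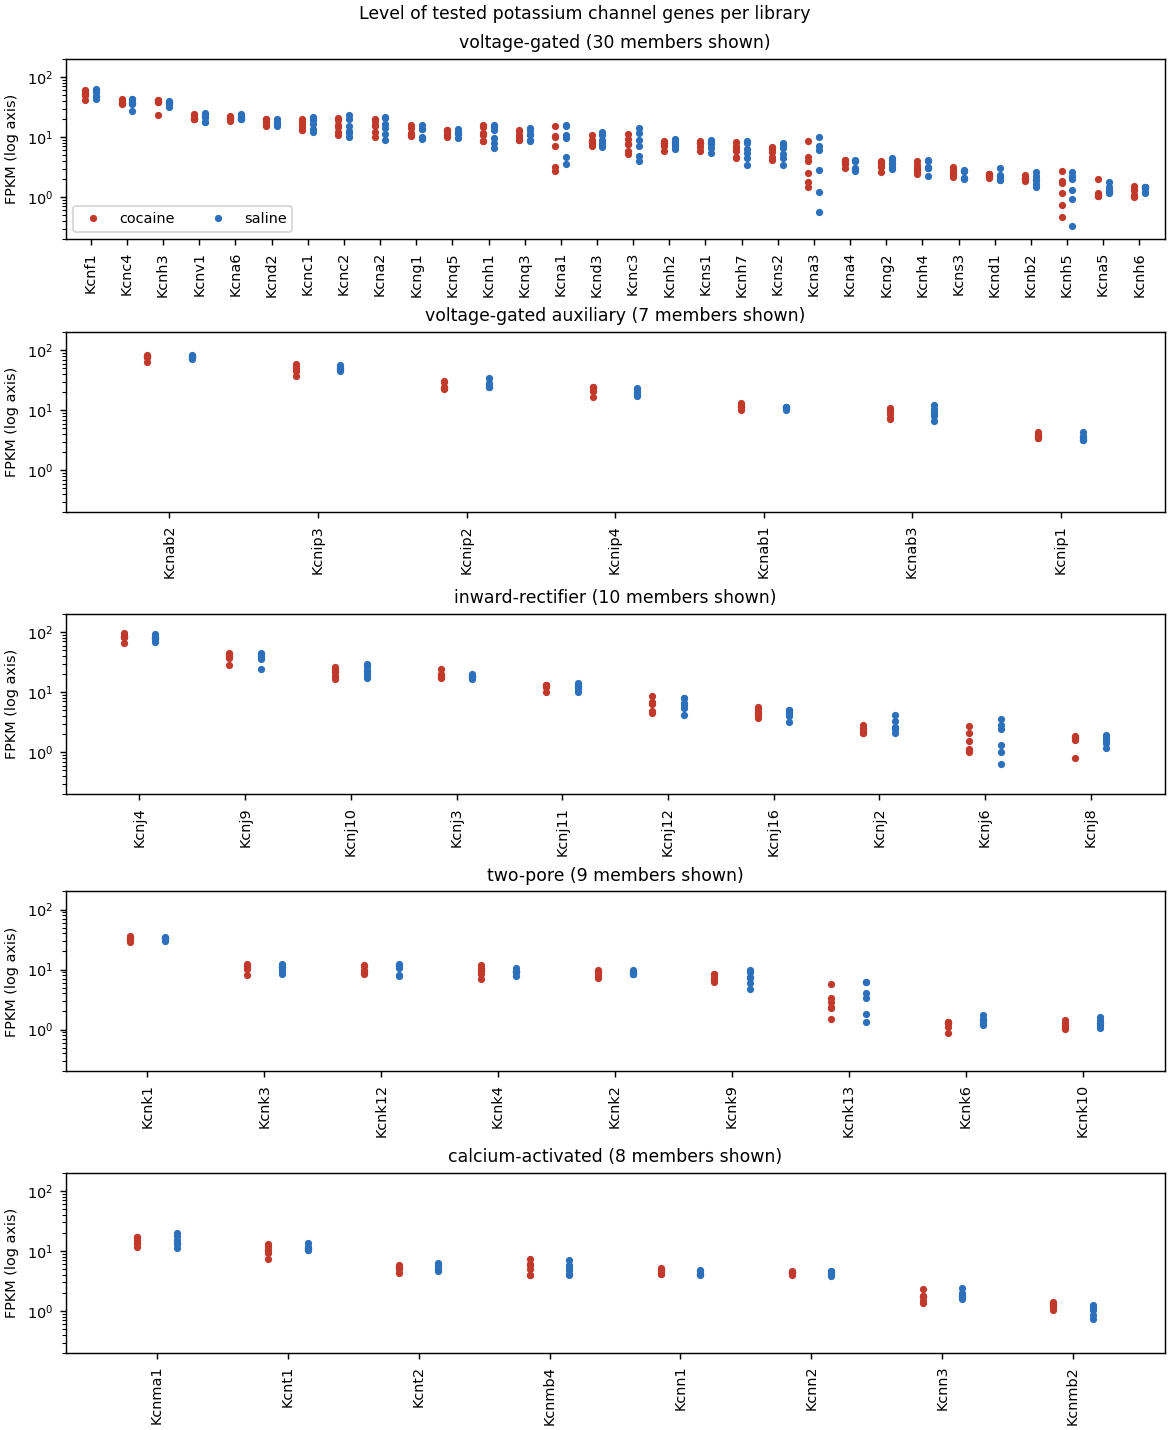
Level of 64 tested members in every library (FPKM, log axis), one panel per family, with cocaine libraries in red on the left and saline libraries in blue on the right of each gene. The red and blue points overlap for every gene drawn, and Kcna3, Kcna1, Kcnh5, Kcnj6 and Kcnk13 are spread more widely than their neighbours.

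Among the pore subunits of the Kcna to Kcnd group, Kcnc4 had the highest level. Kcnc4, of the fast-gating Shaw-related subfamily, lay between 2311 and 2848 normalised reads in cocaine libraries (median 2389.9) and between 1701 and 2883 in saline libraries (median 2441), a log2 difference of 0.05 ± 0.12 (SE; limma adjusted p = 1.00). Its saline libraries spanned the cocaine ones entirely.

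The smallest p-values of that group belonged to Kcna4 and Kcna5. Kcna4, a subunit of inactivating A-type current, had 262 to 359.8 normalised reads in cocaine libraries (median 332) and 228 to 362 in saline libraries (median 303), a difference of 0.14 ± 0.14 with an exact permutation p of 0.366. Kcna5, a delayed rectifier, had 51.5 to 101 in cocaine libraries (median 56.5) and 59.1 to 94.5 in saline libraries (median 65.7), a difference of -0.17 ± 0.18 and an exact permutation p of 0.361. In Kcna5 library 4 of each group stood above the other 5.

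The electrically silent subunits (Kcnf, Kcng, Kcns and Kcnv) form no channel alone and modify other voltage-gated subunits. They were well represented: Kcnf1 averaged 53.0 ± 7.07 FPKM in cocaine libraries and 52.7 ± 8.67 FPKM in saline libraries (SD, n = 6 each), the highest of all voltage-gated members. In reads Kcnf1 ran from 3475 to 5371 in cocaine libraries (median 4322) and from 3493 to 5570.4 in saline libraries (median 4416), a log2 difference of 0.0094 ± 0.13. Kcnv1 was next, from 1607 to 1928 in cocaine libraries (median 1696) and from 1378 to 2160.1 in saline libraries (median 1742), with a difference of 0.02 ± 0.11. By smallest p, Kcns3, which is known from parvalbumin interneurons, had 124 to 172 in cocaine and 115 to 160.0 in saline libraries (medians 145 and 133; 0.11 ± 0.12), and Kcng2 had 142 to 209 in cocaine and 163 to 227 in saline libraries (medians 190.3 and 199; -0.10 ± 0.12).

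Kcnq genes encode the subunits of the M-current, a slow current that muscarinic receptors close and that restrains repetitive firing. Kcnq3 ran from 2263 to 3483 normalised reads in cocaine libraries (median 2684) and from 2146 to 3813 in saline libraries (median 2824), a log2 difference of -0.05 ± 0.16. Kcnq5 differed by 0.00067 ± 0.11, with 1313 to 1819 in cocaine libraries (median 1636) and 1268 to 1928 in saline libraries (median 1624). The ranges of both genes overlapped almost fully.

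In the ether-a-go-go group, Kcnh3, a forebrain member, was highest at 37.4 ± 7.27 FPKM in cocaine libraries and 36.8 ± 2.67 FPKM in saline libraries (SD, n = 6 each). Its cocaine libraries ran from 2304 to 4266 normalised reads (median 4016) and its saline libraries from 3191 to 4001 (median 3867), so that a single cocaine library lay below all others. The log2 difference was -0.0046 ± 0.14. Kcnh1 ranged from 1080.0 to 2124 in cocaine libraries (median 1440.3) and from 844 to 2107 in saline libraries (median 1481), a difference of 0.08 ± 0.24. Kcnh6 had 61.1 to 95.5 in cocaine libraries (median 74.3) and 70.1 to 96.6 in saline libraries (median 91.2), a difference of -0.20 ± 0.14 with an exact permutation p of 0.165.

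The 7 auxiliary subunits had a median level of 21.1 FPKM and a median coefficient of variation of 11.2 percent, beside 8.83 FPKM and 16.7 percent over all tested members, while Kcnip1 lay lower in level and Kcnab3 higher in variation than those medians. Kcnab2, a cytoplasmic beta subunit of Kcna channels, had 77.8 ± 7.04 FPKM in cocaine libraries and 78.4 ± 4.42 FPKM in saline libraries (SD, n = 6 each). Its reads ran from 6255 to 8239.8 in cocaine libraries (median 7897) and from 6722 to 8498 in saline libraries (median 7768), a log2 difference of -0.01 ± 0.09. The Kcnip genes encode calcium-binding proteins that bring Kcnd channels to the surface and shape A-type current. Kcnip3 ran from 2283 to 3661 in cocaine libraries (median 3092) and from 2946 to 3394 in saline libraries (median 3073; -0.04 ± 0.10).

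Kcnip4 and Kcnip2 had the smallest p-values of the auxiliary subunits. Kcnip4 had 1119.6 to 1569 reads in cocaine libraries (median 1421) and 1129 to 1466 in saline libraries (median 1289), a difference of 0.11 ± 0.10 with an exact permutation p of 0.288. Kcnip2 had 1428 to 1863 in cocaine libraries (median 1466) and 1514 to 2024 in saline libraries (median 1619), a difference of -0.09 ± 0.09 with an exact permutation p of 0.361. Both differences were of the size of their errors.

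Kcnj4, a strong inward rectifier of forebrain neurons, had the highest level of all 86 members. It reached 83.0 ± 9.44 FPKM in cocaine libraries and 80.4 ± 8.38 FPKM in saline libraries (SD, n = 6 each), with 2500.0 to 3590.3 reads in the cocaine group (median 3182) and 2538 to 3606 in the saline group (median 3091). Its log2 difference was 0.04 ± 0.10, with a 95% interval of -0.17 to 0.26. Kcnj9 and Kcnj3 are subunits of channels that G-protein-coupled receptors open, among them those for dopamine, opioids and GABA.

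Kcnj9 ran from 2107 to 3456 reads in cocaine libraries (median 2989) and from 1761 to 3401 in saline libraries (median 2955), a difference of 0.08 ± 0.16. Kcnj3 had 1566 to 2198 in cocaine libraries (median 1734) and 1472 to 1943 in saline libraries (median 1669.8), a difference of 0.09 ± 0.09 with an exact permutation p of 0.361. Kcnj3 shares 31.1 percent of its exon bases with the annotated gene Gm26794. Kcnj2, which holds the resting potential of many excitable cells, had 196 to 266 in cocaine libraries (median 226) and 198 to 384 in saline libraries (median 258), a difference of -0.23 ± 0.15 with an exact permutation p of 0.169. The differences of Kcnj4, Kcnj9 and Kcnj3 were positive and that of Kcnj2 negative, each within the spread of its libraries.

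The two-pore channel Kcnk1, a weak leak channel, was the steadiest tested member, with a coefficient of variation of 5.49 percent over the 12 libraries. It had 1170.0 to 1409 reads in cocaine libraries (median 1292) and 1201 to 1362 in saline libraries (median 1307), and its log2 difference of -0.0077 had a 95% interval of -0.15 to 0.14. Kcnk3, an acid-sensitive leak channel, had 562 to 899 in cocaine libraries (median 759.5) and 571 to 884 in saline libraries (median 754; 0.04 ± 0.13). Kcnk6 had 62.5 to 98.7 in cocaine libraries (median 93.2) and 84.9 to 135 in saline libraries (median 101), a difference of -0.23 ± 0.15 with an exact permutation p of 0.141.

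Kcnma1, the pore of the large-conductance channel that calcium and voltage open together, led the calcium-activated family. It had 3462 to 5408 reads in cocaine libraries (median 4349.9) and 3260.5 to 6131 in saline libraries (median 4343), a log2 difference of -0.02 ± 0.15. Its beta subunit gene Kcnmb2, whose product inactivates that channel, had the smallest unadjusted limma p of all tested members. Kcnmb2 ran from 56.6 to 78.4 in cocaine libraries (median 68.8) and from 39.7 to 73.3 in saline libraries (median 60.6), a difference of 0.27 ± 0.16 with an unadjusted p of 0.115, an adjusted p of 1.00 and an exact permutation p of 0.117. The sodium-activated Kcnt1 had 1244 to 2146 in cocaine libraries (median 1766) and 1676 to 2199.8 in saline libraries (median 1962), a difference of -0.15 ± 0.12 with an exact permutation p of 0.273.

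Genes outside the member set, most of them acting on these channels, were read the same way. The list of 23 partners held beta-like subunits of the Kcne family, sulfonylurea receptors, calmodulins, Dpp and contactin-type proteins. It also held Kcnu1, a channel pore gene that the member rule leaves out. Of them 22 were in the table and 16 were tested, with 10 higher, 6 lower and 0 past an unadjusted p of 0.05. The smallest p-values belonged to Abcc8, the sulfonylurea receptor that pairs with Kcnj11, and Lrrc55, which modulates Kcnma1. Abcc8 had 294 to 471 reads in cocaine libraries (median 381) and 385 to 506 in saline libraries (median 426), a difference of -0.16 ± 0.11. Lrrc55 had 248 to 335 in cocaine libraries (median 272) and 255 to 356 in saline libraries (median 301), a difference of -0.11 ± 0.10.

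The 19 members below 1 FPKM were not tested. The highest were Kcng4, with 25.4 to 51.4 reads in cocaine libraries (median 43.3) and 28.7 to 59.8 in saline libraries (median 40.1), Kcng3, with 5.51 to 64.5 in cocaine libraries (median 20.4) and 3.04 to 88.1 in saline libraries (median 22.0), and Kcnj14, with 9.16 to 22.7 in cocaine libraries (median 19.3) and 12 to 16.5 in saline libraries (median 15.4). Under the p-values of the authors' deposited table, 1 of 86 members (1.16 percent) fell under 0.05 unadjusted, beside 428 of 28827 genes (1.48 percent), a share near the background. That member was Kcnj13, a weak inward rectifier of choroid plexus and other transporting epithelia, with a deposited log2 value of -2.80 and a p of 0.0363. Kcnj13 had at most 1.99 reads in cocaine libraries (median 0.494), and in saline libraries it reached 18.2 in library 5 (median 0.98), the library with 11208 reads of Ttr. Its next highest value, 7.69 reads, was in saline library 3, which had 1.10 reads of Ttr. DESeq2 run here without saline library 5 gave a log2 difference of -1.51 with an unadjusted p of 0.302. Kcnj13 also shares 49.1 percent of its exon bases with Gigyf2 on the opposite strand, and whether the counting used strand is not given in the sources used here.

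Channel genes varied between single libraries in both groups, and many of them moved together. A first principal component over the 67 tested members held 74.2 percent of their variance, against 43.2 percent for the other tested genes. With each gene scaled to unit variance, so that the most variable members count no more than the rest, the shares were 49.3 percent for members and 42.5 percent for the others. The others are far more genes, and no gene set of the members' size was compared. The members with the largest coefficients of variation were Kcna3 (75.5 percent), Kcna1 (55.8 percent), Kcnh5 (55.1 percent) and Kcnj6 (54.7 percent), while the median was 16.7 percent over tested members and 15.1 percent over all tested genes. Kcna3, a slowly inactivating subunit, ranged from 48.7 to 305 reads in cocaine libraries (median 106) and from 18.2 to 347 in saline libraries (median 150), so that its highest library was 19.1-fold above its lowest. Kcna1, a low-threshold subunit of axons, ranged from 229 to 1326 in cocaine libraries (median 716) and from 288 to 1413 in saline libraries (median 867). Kcnh5 ranged from 33.1 to 199 in cocaine libraries (median 104) and from 23.3 to 192 in saline libraries (median 118). Kcnj6, a further subunit of the receptor-opened inward rectifiers, ranged from 132 to 387 in cocaine libraries (median 176) and from 84.0 to 499 in saline libraries (median 249.9).

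The same libraries were high and low for all 4 genes. Library 2 was highest of the cocaine group in each, and cocaine libraries 1 and 5 were the lowest pair for each; of the saline group, libraries 3 and 4 were the highest pair and libraries 5 and 6 the lowest pair. The groups overlapped throughout, and the log2 differences were 0.05 ± 0.66 for Kcna3, -0.36 ± 0.48 for Kcna1, -0.07 ± 0.51 for Kcnh5 and -0.16 ± 0.41 for Kcnj6. The Kcna3 difference turned to -0.28 in edgeR and DESeq2, and the spread of these genes is such that the 95% interval of each of the 4 reached past 1 log2 unit in at least one direction. Without 1 library the Kcna1 difference ran between -0.63 and -0.10.

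**Figure D3:**
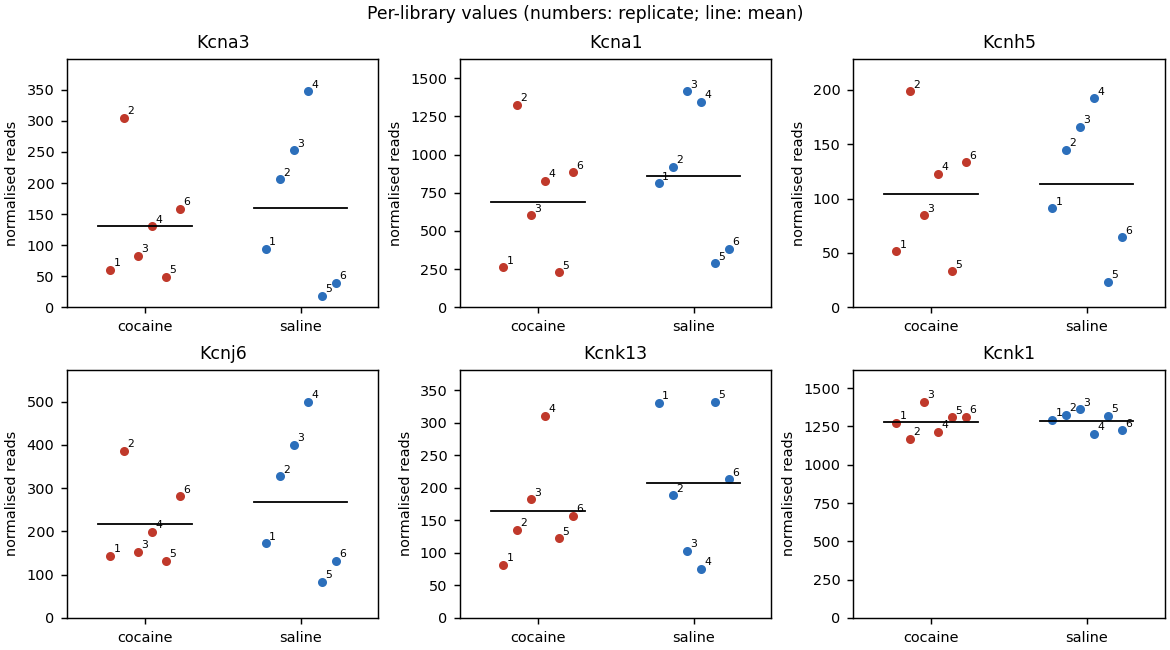
Normalised reads per library for the 4 tested members with the largest coefficient of variation, for Kcnk13 and for the steady Kcnk1, with cocaine libraries on the left and saline libraries on the right; numbers are the replicates and lines the group means. Kcna3, Kcna1, Kcnh5 and Kcnj6 share their high libraries (cocaine 2, saline 3 and 4), Kcnk13 has another order, and Kcnk1 is nearly flat between 1170.0 and 1409 reads.

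Promoters of these genes are shown because they are the members that varied most between libraries; Kcna1 is named only. In the RefSeq promoter table (GRCm38.p6; 250 bases before to 50 after a start, 5′ to 3′ on the gene's strand) 63 members had 86 entries, among them Kcna3 (chr3:107035912-107036211, plus strand), Kcnh5 (chr12:75177283-75177582, minus strand) and Kcnj6 (first of 2 entries, chr16:94997647-94997946, minus strand). Capitals mark TGACG or its reverse complement, the core of the cAMP response element.
Kcna3: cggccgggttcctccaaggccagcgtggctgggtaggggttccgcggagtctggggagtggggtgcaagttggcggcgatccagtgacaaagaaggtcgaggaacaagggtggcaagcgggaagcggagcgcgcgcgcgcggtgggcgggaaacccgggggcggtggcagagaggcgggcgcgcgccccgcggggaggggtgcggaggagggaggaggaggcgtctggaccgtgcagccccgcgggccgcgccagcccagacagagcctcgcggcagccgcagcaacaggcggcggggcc
Kcnh5: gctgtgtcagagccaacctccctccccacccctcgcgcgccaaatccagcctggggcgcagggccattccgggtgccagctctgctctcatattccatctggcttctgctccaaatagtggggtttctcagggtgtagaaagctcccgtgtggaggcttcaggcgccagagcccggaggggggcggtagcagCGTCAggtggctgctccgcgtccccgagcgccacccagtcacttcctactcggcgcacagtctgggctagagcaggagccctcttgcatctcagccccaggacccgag
Kcnj6: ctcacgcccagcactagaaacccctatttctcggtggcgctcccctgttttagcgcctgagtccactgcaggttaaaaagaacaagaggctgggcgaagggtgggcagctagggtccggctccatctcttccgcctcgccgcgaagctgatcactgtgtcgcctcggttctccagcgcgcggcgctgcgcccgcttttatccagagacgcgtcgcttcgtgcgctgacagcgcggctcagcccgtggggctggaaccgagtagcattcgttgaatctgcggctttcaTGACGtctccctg
All 3 windows were rich in G and C, at 75, 65.3 and 62.0 percent, against a median of 59.0 percent over member entries and 52.7 percent over all promoters in the table. TGACG was found on either strand in 16.3 percent of member entries and 20.8 percent of all promoters. TATAAA was found in 5.81 percent of member entries and 13.6 percent of all, and CACGTG in 6.98 percent of member entries and 7.15 percent of all, both on either strand. A match is a description of the letters only.

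For Kcna3, Kcna1, Kcnh5 and Kcnj6 the order of the libraries was close to that of a measure taken from other genes. For each library the log2 deviations of all tested genes outside the family were regressed on log2 gene length, which gives a length slope: positive where longer genes stood above their own mean and shorter genes below. The slope did not separate the groups, at -0.0035 ± 0.0607 in cocaine libraries and 0.0035 ± 0.0719 in saline libraries (SD, n = 6 each; exact permutation p = 0.861). This measure was chosen after the data were seen. The members' median deviation was 0.22 in saline library 4 and 0.17 in cocaine library 2, which had the steepest slopes, and -0.28 in saline library 5, which had the lowest slope. The relation was loose: cocaine library 1 had nearly that slope (-0.08) and a members' median of -0.04, and cocaine library 3, with a slope of -0.0079, had -0.11. The median over all tested genes stayed between -0.01 and 0.01 in every library, where division by size factors holds it. It is therefore no measure of how far other long genes moved. The longest tested genes, of 7324 bases or more, had medians of 0.21 in saline library 4 and 0.18 in cocaine library 2. In saline library 5 their median was -0.20. These long genes include members, and the slope is defined by gene length. Their medians therefore follow from its definition and are no separate result.

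Fitted beside group with limma, 35 of 67 members (52.2 percent) were higher with a higher length slope at an adjusted p under 0.05, against 27.2 percent of all tested genes. In the other direction 3 of 67 members (4.48 percent) were called, against 24.5 percent of all tested genes. Tested members had a median length of 4833 bases, against 4117.5 over all tested genes. Among all tested genes of at least 4833 bases 49.1 percent were called higher, and among the 34 members of that length 22 were (64.7 percent). Among shorter genes 12.1 percent were called higher, and among the 33 shorter members 13 were (39.4 percent). No test of the difference between members and other genes was made.

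Most of these calls fell in the voltage-gated family, which held 33 of the 67 tested members. Median lengths of tested members were 5152 bases in that family and 4112 in inward rectifiers. They were 3976 in two-pore, 7108 in calcium-activated and 3627 in auxiliary members. Longer genes were called higher more often, and no share of genes of like length was taken for each family. Of the 33 voltage-gated members 24 were higher with the slope and 0 lower. Their median coefficient was 0.20 log2 units per SD of the slope. Within the Kcna to Kcnd group all but Kcna5 and Kcna6 were called higher. The largest coefficients were 1.24 ± 0.10 for Kcna3, 0.92 ± 0.10 for Kcnh5 and 0.91 ± 0.06 for Kcna1 (SE; limma adjusted p of 5.43e-07, 6.19e-06 and 1.78e-07). Kcna3 is one of the shorter members, at 1902 bases. Neighbouring genes had the following values side by side, with no test of their difference. On chromosome 6 (GRCm38) Kcna1 (chr6:126640397-126646384, minus strand) lies beside Kcna5 (chr6:126532551-126535412, minus strand) and Kcna6 (chr6:126708329-126740674, minus strand), whose coefficients were 0.10 ± 0.09 and -0.03 ± 0.03. On chromosome 3 Kcna3 (chr3:107036169-107038070, plus strand) lies beside Kcna2 (chr3:107101146-107115005, plus strand), which had 0.44 ± 0.04. Kcna6 shares 39.6 percent of its exon bases with the annotated gene Gm26673. Kcnj6 had 0.75 ± 0.07 (adjusted p = 1.95e-06), and 4 of 10 inward rectifiers, 2 of 9 two-pore members and 4 of 8 calcium-activated members were called higher.

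Of the 7 auxiliary subunits 2 were called lower and 1 higher. Kcnip4 (-0.13 ± 0.03) and Kcnip2 (-0.11 ± 0.03) were lower with a higher slope, Kcnab1 was higher (0.08 ± 0.03), and the family's median coefficient was -0.06. The Kcnip2 call was lost without saline library 5 (adjusted p = 0.0591), and with the time tag of the labels in the fit. The Kcnab1 call was lost without any one of cocaine libraries 1, 2 and 6 and saline libraries 2, 3 and 6, with an adjusted p of up to 0.122. The third member called lower was Kcnmb4 (-0.21 ± 0.06), a neuronal beta subunit of the large-conductance channel, whose pore gene Kcnma1 had a coefficient of 0.27 ± 0.03. Kcnmb4 shares 20.8 percent of its exon bases with the annotated gene Kcnmb4os2. With the slope as a covariate 0 members were called between the groups, and 2 had an unadjusted limma p under 0.05. These were Kcnmb2, with a log2 difference of 0.29 and a limma p of 0.0347 (adjusted p = 0.999), and Kcna4, with 0.16 and a limma p of 0.0439 (adjusted p = 0.999). The share of all tested genes at that threshold in this fit is not given here, so these 2 are no result about channels. Of the 38 calls in either direction, 8 ended when 1 library was left out. The share of calls lost in this way over all tested genes is not given here. The mitochondrial share of reads ran from 3.24 to 3.90 percent in the 6 libraries with a slope above 0 and from 3.70 to 5.43 percent in the 6 with a slope below 0, and its part in the result was not tested. A time tag in the labels, day 0 or day 5, also ran with the slope in the cocaine group, where the 3 libraries of day 0 had slopes of -0.08 to -0.0079 and the 3 of day 5 had 0.02 to 0.08. In the saline group the slopes of day 0 (-0.08 to 0.07) and day 5 (-0.07 to 0.08) overlapped. With the tag beside the slope in the fit, 32 members were called higher and 2 lower. The share of all tested genes called in that fit is not given here.

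**Figure D4:**
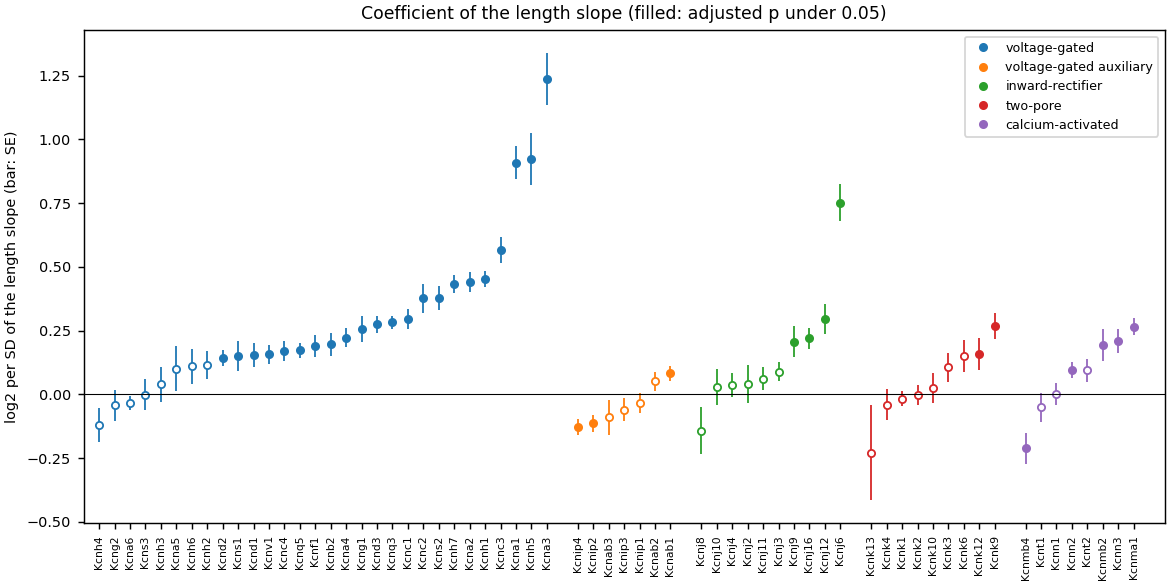
Coefficient of the library length slope for 64 tested members (log2 units per SD of the slope, with SE bars), by family; filled points have an adjusted p under 0.05. Voltage-gated members reach 1.24 with none called lower, whereas Kcnip4, Kcnip2 and Kcnmb4 lie below 0.

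Kcnk13 followed another measure of the libraries. This two-pore channel, known for a background current in microglia, ranged from 81.5 to 310.4 reads in cocaine libraries (median 146) and from 75.4 to 332 in saline libraries (median 201), and it was singled out after its values were seen. Its order of libraries was close to that of the summed myelin markers: Kcnk13 was highest in saline libraries 5 and 1 and cocaine library 4, where the 6 markers summed to 193315, 217589 and 177798 reads, and lowest in saline library 4, where they summed to 30119. In a fit with group, its coefficient was 0.72 ± 0.05 per SD of the myelin score (SE; limma adjusted p = 9.09e-07), the score being the mean log2 deviation of the 6 markers. The sum of 6 microglia markers was far narrower, from 4182 to 4677 reads in cocaine libraries and from 4178 to 5063 in saline libraries.

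Kcnj10, the glial inward rectifier that takes up potassium around neurons, was the only other member called higher with the myelin score, at 0.22 ± 0.05 (adjusted p = 0.0202). The call was lost without cocaine library 4 (adjusted p = 0.0677) and without saline libraries 1 (0.105), 4 (0.102) or 5 (0.0519), each left out in turn. It ran from 1559 to 2496 reads in cocaine libraries (median 2167) and from 1681 to 2796 in saline libraries (median 2096; -0.07 ± 0.14 between groups). These 2 of 67 members (2.99 percent) stand beside 3.16 percent of all tested genes called higher, so the share was that of the background. In the other direction 0 members were called, against 0.215 percent of all tested genes. With library weights, 27 of 67 members (40.3 percent) were called lower with the myelin score, against 18.0 percent of all tested genes under the same weights. The share in this direction thus depended on the weights, and its difference from the background was not tested. The score itself averaged -0.09 ± 0.68 in cocaine libraries and 0.09 ± 1.17 in saline libraries (SD, n = 6 each; exact permutation p = 0.749). In bulk tissue, fewer cells of a type and less RNA per cell cannot be told apart.

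**Figure D5:**
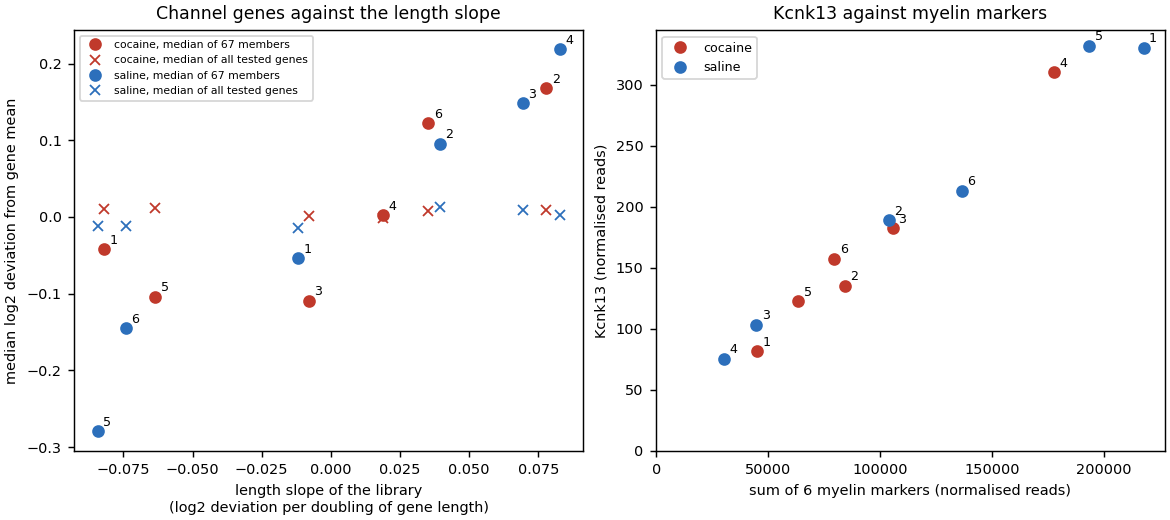
Left, median log2 deviation of the 67 tested members (circles) and of all tested genes (crosses) against the length slope of each library; right, Kcnk13 reads against the summed normalised reads of 6 myelin markers. Cocaine libraries are red, saline libraries blue, and numbers are replicates. Members run from -0.28 to 0.22 along the slope. All tested genes stay near 0, where the size factors hold their median. The longest tested genes (not drawn) run from -0.20 to 0.21, which follows from how the slope is defined. Kcnk13 climbs with the markers in both groups.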

How the data were processed

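RNA sequencing libraries from prefrontal cortex (Trizol RNA, Illumina TruSeq kit, per the labels' protocols) were grouped by the treatment label. The submitters' processing notes name HISAT2 2.0.5; which counter, strand setting and annotation were used is not given in the sources used here. The authors made the deposited signal values per library by dividing whole read counts by a size factor (recovered from the values within 0.01 read); they are not per length, although the table is named FPKM. The authors also deposited a log2 ratio of the groups and a p-value per gene. FPKM was computed here from value, length and column sum, since the test plan had assumed FPKM. Genes with a mean of at least 1 FPKM were fitted with limma 3.58.1 (R 4.3.3) on log2(value + 1), which understates changes of low genes; edgeR 4.0.16 and DESeq2 1.42.0 used the recovered counts. Exact permutation tests ran over all 924 splits, with a smallest p of 0.00216. Fits were tested on simulated data. The named genes were, per subfamily, the 2 highest by FPKM and the smallest p in each direction, then the 4 most variable, Kcnj13 and the 3 highest untested members; Kcnk13, Kcnj10, Kcnmb4, Kcnab1, Kcna2 and Kcna6 were named for other results after their values were seen. Members and lists were chosen with earlier results of these data known. Coordinates are GRCm38, and 82 of 86 members had the same ones in GENCODE M21. Alternatives covered pseudocount, filter, scaling, variance model, count tests, covariates, the replicate block and each library left out. Some members that this rule names are not reported here; they stay in the fits and counts.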

Additional observations from a re-analysis of the deposited data

Results flagged for a closer look

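Each group of 6 libraries of a named member was checked for a single library far from the other 5, which chance alone would give in about 1 in 20 groups; 70 groups were checked and 4 stood out. Kcna5 had 101 normalised reads in cocaine library 4, the highest of its group, and 94.5 in saline library 4, the highest of its group. Kcnh3 was lowest in cocaine library 3, with 2304 reads. Kcnab2 was lowest in the same library, with 6255 reads.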

How the results depend on the processing

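No member was called after adjustment in any of 28 alternatives to the comparison of groups. Over all genes DESeq2 called 3, against 0 with limma. The count of members at an unadjusted p under 0.05 was 0 with limma, 1 with library weights (Kcnj2), 1 with edgeR without a count filter (Kcnj13), 1 with DESeq2 (Kcnj13), 2 with the length slope as a covariate, and 0 to 1 with each library left out (Kcna5 without cocaine 4, Kcnj2 without saline 5). For most of these settings the share over all tested genes is not given here, so the counts say nothing particular about channels. The family medians moved by less than the spread between libraries. No pairing of the libraries by replicate number was seen. Same-number correlations ran from -0.399 to 0.435, and 0 libraries correlated best with their own number. With so few numbers, and libraries that differ along other measures, this check cannot exclude a pairing. With a replicate block 0 members were called or had an unadjusted p under 0.05, and 0 genes were called.

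The differences below changed sign, most of them close to 0 throughout and those of Kcna3, Kcnh5 and Kcnj6 over wider ranges, and the cause was not tested. With library weights the log2 differences were 0.0021 for Kcnma1, -0.028 for Kcnj4, -0.015 for Kcnk3, -0.011 for Kcnf1, -0.012 for Kcnv1, -0.017 for Kcnc4, 0.0086 for Kcnh3 and -0.16 for Kcna3. edgeR with TMM scaling gave 0.024 for Kcnh3 and -0.28 for Kcna3. edgeR without a count filter gave -0.0080 for Kcnf1, -0.0048 for Kcnv1, 0.0099 for Kcnh3, -0.010 for Kcnq5 and -0.29 for Kcna3. DESeq2 gave 0.020 for Kcnh3, -0.0012 for Kcnq5 and -0.28 for Kcna3. Scaling to equal sums per gene length gave -0.0024 for Kcnq5. The length slope as a covariate gave 0.0053 for Kcnma1 and 0.029 for Kcnh5. The myelin score as a covariate gave -0.019 for Kcnf1, -0.0034 for Kcnv1, -0.010 for Kcnq5 and -0.072 for Kcna3. Leaving out each library in turn gave -0.12 to 0.066 for Kcnma1, -0.13 to 0.039 for Kcnq3, -0.46 to 0.20 for Kcnh5, -0.036 to 0.018 for Kcnk1, -0.031 to 0.12 for Kcnk3, -0.057 to 0.079 for Kcnf1, -0.067 to 0.20 for Kcnh1, -0.064 to 0.057 for Kcnq5, -0.45 to 0.39 for Kcna3, -0.045 to 0.085 for Kcnv1, -0.049 to 0.13 for Kcnh3, -0.053 to 0.042 for Kcnab2, -0.098 to 0.039 for Kcnip3, -0.44 to 0.067 for Kcnj6, -0.0087 to 0.11 for Kcnj4, -0.056 to 0.17 for Kcnj9 and -0.043 to 0.11 for Kcnc4. Without a change of sign, it gave -0.21 to -0.056 for Kcnt1, -0.31 to -0.081 for Kcna5, -0.15 to -0.029 for Kcng2, -0.63 to -0.095 for Kcna1, 0.029 to 0.13 for Kcnj3, 0.063 to 0.20 for Kcna4 and -0.14 to -0.030 for Kcnip2.

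Along the length slope, 31 to 37 members were called higher and 2 to 3 lower without each library. For the myelin score, 1 to 2 members were called higher and 0 to 4 lower without each library, and 1 was higher with a minimum of 5 FPKM. With library weights 27 were lower (40.3 percent of tested members, against 18.0 percent of all tested genes), and the cause was not tested. The shares of all tested genes called with a library left out or with the 5 FPKM minimum are not given here. Those counts show only how far the calls depend on the setting and are no result about the members. Alternatives to the length slope and myelin fits were chosen after seeing the data. Depth limits only the low members: 3 reads is the smallest count distinguishable from 0, counting error only.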
